A study of Mus musculus with 8 samples.

Results

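The CXC chemokines and receptors described here are 10 genes taken by symbol from the 21848 genes counted in each library: the ligands Cxcl1, Cxcl2, Cxcl5, Cxcl9, Cxcl10, Cxcl12 and Cxcl16, the receptors Cxcr2 and Cxcr4, and the atypical receptor Ackr3. All 10 were found, each with a single entry. Their unique molecular identifiers (UMIs, each standing for 1 captured RNA molecule) were read in 46216 droplets that held at least 2000 UMIs and less than 20% mitochondrial UMIs, and 44072 cells remained after 2144 droplets were removed as doublets.

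Single-cell RNA sequencing was performed on unenriched cells of the right sensorimotor cortex, the injury site with the spared tissue around it, at day 6 after photothrombotic stroke (PT), in which light activates an injected dye and clots the cortical vessels. Osmotic minipumps implanted 2 days before PT delivered either saline (control, n = 4 mice) or ancrod at 2.4 U per day, given in the study's methods also as 2.0 mg/kg (n = 4 mice). Ancrod is a snake venom protease that depletes fibrinogen from blood. Each mouse gave 1 library. Replicates 1 to 3 of each group were injured and sequenced as batch 1 and replicate 4 as batch 2. The control mice carried the injury as well and no uninjured cortex was compared here, so no value below is a response to stroke. The labels name female mice of genotype Bl/J6, whereas the study's methods name C57BL/6N mice of both sexes, and this was not settled.

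CXC chemokines are small secreted proteins that steer leukocytes through G protein-coupled receptors. Cxcl1, Cxcl2 and Cxcl5 act on Cxcr2 and recruit neutrophils, and their genes are classical targets of NF-kappaB. Cxcl9 and Cxcl10 are induced by interferons and act on Cxcr3 of T and natural killer (NK) cells. Cxcl12 holds and guides cells that carry Cxcr4, Ackr3 takes Cxcl12 up without classical G protein signaling, and Cxcl16 is made as a membrane-bound protein whose receptor is Cxcr6.

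Of the 7 ligands, 5 lie on mouse chromosome 5. In GRCm39, the build of the deposited counts, Cxcl5 spans chr5:90907186-90909483, Cxcl1 chr5:91039094-91040974 and Cxcl2 chr5:91051730-91053797 on the plus strand, and Cxcl9 spans chr5:92469206-92475945 and Cxcl10 chr5:92494497-92496748 on the minus strand. Cxcl12 lies at chr6:117144945-117158328 on the plus strand and Cxcl16 at chr11:70344517-70352620 on the minus strand. The receptor genes all lie on chromosome 1, Cxcr2 at chr1:74193150-74200405 and Ackr3 at chr1:90131689-90144473 on the plus strand, and Cxcr4 at chr1:128515936-128520044 on the minus strand.

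The sequences just upstream of Cxcl1, Cxcl2 and Cxcl10 are shown because these were the only promoters among the members that held either motif searched. They are RefSeq promoter sequences, located in GRCm39 by exact search and printed 5′ to 3′ on the strand of the gene up to the annotated start. Capitals mark GGG and TTTCC with 2 free bases between them, a form of the kappaB motif bound by NF-kappaB, in Cxcl1 and Cxcl2, and GAAA and GAAA with 2 free bases between them, a core of the interferon-stimulated response element (ISRE), in Cxcl10.
Cxcl1, chr5:91038854-91039093, plus strand: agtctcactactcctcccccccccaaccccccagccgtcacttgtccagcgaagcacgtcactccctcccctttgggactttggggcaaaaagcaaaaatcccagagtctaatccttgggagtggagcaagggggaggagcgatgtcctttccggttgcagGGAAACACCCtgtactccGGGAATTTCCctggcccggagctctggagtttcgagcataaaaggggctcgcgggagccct
Cxcl2, chr5:91051508-91051729, plus strand: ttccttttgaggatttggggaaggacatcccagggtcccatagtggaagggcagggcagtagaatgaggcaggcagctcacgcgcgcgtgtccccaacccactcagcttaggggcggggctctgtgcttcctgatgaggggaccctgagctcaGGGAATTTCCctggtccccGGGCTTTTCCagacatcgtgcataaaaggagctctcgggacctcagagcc
Cxcl10, chr5:92496749-92496998, minus strand: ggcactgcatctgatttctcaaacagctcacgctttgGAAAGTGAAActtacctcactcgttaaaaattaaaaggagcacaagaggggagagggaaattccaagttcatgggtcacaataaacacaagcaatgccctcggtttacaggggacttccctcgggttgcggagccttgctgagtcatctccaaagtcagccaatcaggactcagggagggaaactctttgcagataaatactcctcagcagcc
Cxcl1 held kappaB matches 89 and 71 bases before the RefSeq start, the first of them on the opposite strand, Cxcl2 held matches at 97 and 78 bases, and Cxcl10 held an ISRE match at 213 bases. Both strands were searched, and no 2 matches overlapped. Of the 10 members, 8 had a promoter sequence to search. The kappaB letters were found in 464 of 32851 RefSeq promoters (1.41%) and the ISRE letters in 978 (2.98%). A match describes the letters and is not evidence of binding.

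Cells were grouped by the expression of genes other than the CXC family, and a class is called by its markers with the ending "-like". Neuron-like cells were few, 414 of the 44072, although the tissue was cortex. Of 57 clusters, 42 were named, and the 4540 cells of the others were kept in totals but in no class. A level is given as UMIs of the gene per 1000000 UMIs (CPM) of all cells of a class in 1 mouse, so that the mouse is the replicate. Libraries held 97861434 to 142139441 UMIs, the ancrod libraries all more than the saline libraries, and any 2 libraries shared 3 to 15 barcodes of kept droplets, at most 0.295% of the smaller. Droplets with at most 100 UMIs, which hold mainly free RNA, carried Cxcl2 at a mean of 338 CPM, Cxcl10 at 234, Cxcl12 at 145, Cxcl16 at 125.5, Cxcl1 at 86.3, Cxcr4 at 84.0, Ackr3 at 18.4, Cxcl5 at 5.77, Cxcl9 at 5.40 and Cxcr2 at 1.79. Class levels at or under these values are marked below and are not read as expression on their own. The values give the makeup of free RNA, not the amount that reached a cell. The lowest classes lay far under them, such as neuron-like cells with at most 1.95 CPM of Cxcl1 and NK cell-like cells with at most 14.5 CPM of Cxcl2. The mark does not mean that a level came from free RNA, which was not tested. Classes were ordered by their means, and neighbours in that order were then tested on the same values. The direction of each such test therefore came from the data.

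**Figure D1:**
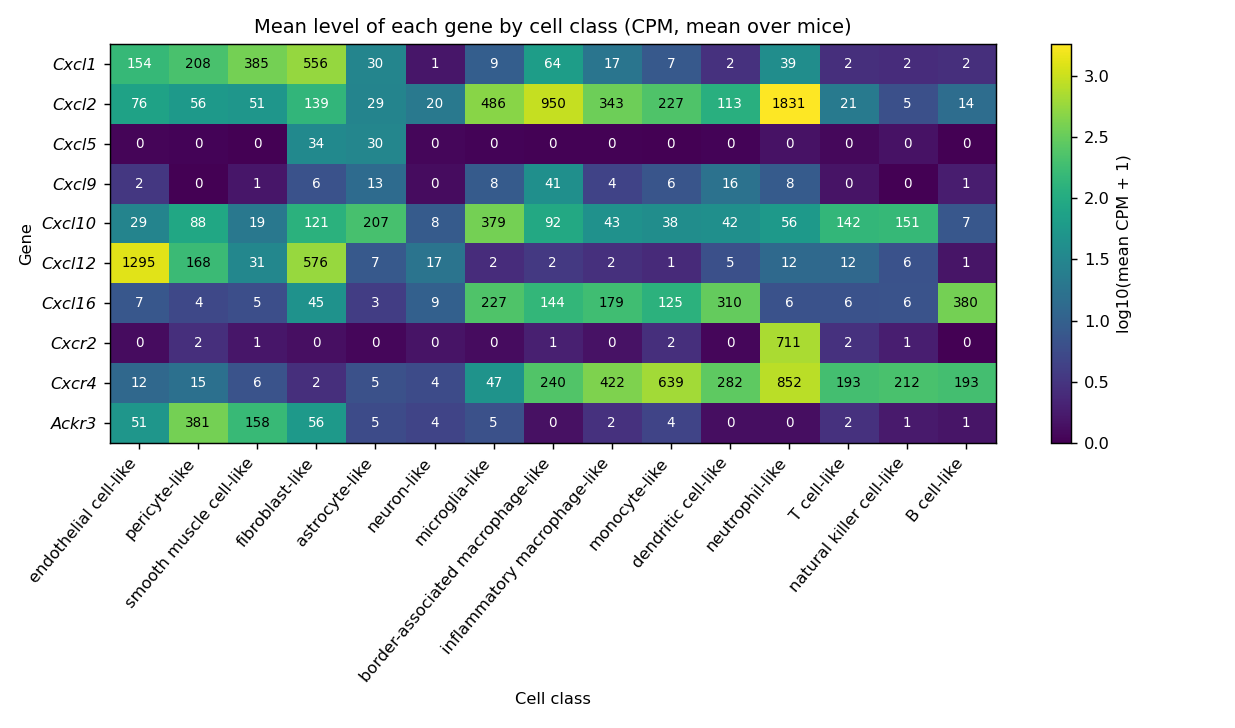
Mean level of the 10 CXC genes (rows) in 15 cell classes (columns), printed in each cell as CPM averaged over mice and coloured by log10(mean CPM + 1). Cxcr2 was high in neutrophil-like cells alone (711 CPM), Cxcl12 in endothelial cell-like (1295) and fibroblast-like cells (576), Ackr3 in pericyte-like cells (381) and Cxcl10 in microglia-like cells (379), whereas Cxcl2 and Cxcr4 were spread over several immune classes.

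Cxcl1 was highest in cells of the vessel wall and its surroundings rather than in immune cells. Its level was 556.5 ± 250 CPM (SD, n = 8 mice) in fibroblast-like cells, 385 in smooth muscle cell-like cells, 208 in pericyte-like cells and 154 in endothelial cell-like cells, against 64.5 in border-associated macrophage-like cells, a level under that of free RNA. In fibroblast-like cells it was 351, 624, 401 and 170 CPM in the saline mice and 881, 682, 856 and 486 CPM in the ancrod mice, so every mouse was above its free RNA but the groups overlapped. Smooth muscle cell-like cells ranged from 27.5 to 1035 CPM over 8 mice, and fibroblast-like cells exceeded them in 7 of 8 mice without passing the test (log2 ratio 1.24, exact sign-flip permutation test, two-sided, adjusted p = 0.123 over the 10 members). Neither the order of smooth muscle cell-like over pericyte-like cells (exact p = 0.430) nor that of pericyte-like over endothelial cell-like cells (exact p = 0.797) was beyond the spread, whereas endothelial cell-like cells exceeded border-associated macrophage-like cells in 8 of 8 mice (exact p = 0.00781, the smallest that 8 mice can give). Fibroblast-like cells held a mean of 41.6% of the Cxcl1 UMIs in saline and 67.7% in ancrod mice (7.72% to 82.5% over mice), and endothelial cell-like cells 36.4% and 16.1%. A Cxcl1 UMI was found in 41.0% ± 14.9 of fibroblast-like cells thinned to 2000 UMIs each.

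Among fibroblast-like cells, Cxcl1 was found in all 3 clusters. The cluster led by Lum, Dcn and Col18a1, matrix genes of fibroblasts, had 789 ± 361 CPM (SD, n = 7 mice), the dividing cluster led by Birc5 had 512 ± 260 (n = 7 mice), and the cluster led by Col1a1 and Col3a1, the fibrillar collagens of scars, had 422 ± 200 (n = 8 mice). The ranges of the 3 clusters overlapped over mice, and their differences were not tested.

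Among the endothelial-like cells that were given a subclass, Cxcl1 was highest in venous-like cells. Of the 7113 endothelial cell-like cells, 1863 were left in no subclass and 326 were venous-like. A cluster of 813 droplets in no subclass scored highest for capillary cells, while its leading genes held 3 venous markers. Venous-like cells had 436, 763, 737 and 628 CPM in saline mice and 668, 540, 591 and 483 CPM in ancrod mice, a mean of 606 ± 116 (SD, n = 8 mice). Tip-like cells, which bear markers of sprouting vessels, had a mean of 240 CPM, lower in 8 of 8 mice and without overlap (log2 ratio 1.40, exact sign-flip permutation test, adjusted p = 0.0260 over the 10 members). Arterial-like and capillary-like cells had 33.2 and 22.9 CPM, both under the level of free RNA, and did not differ beyond their spread (exact p = 0.188). A Cxcl1 UMI was found in 55.8% ± 8.47 of thinned venous-like cells. The scavenging receptor Ackr1, known for venular endothelium, was also highest in venous-like cells, with 1073 ± 323 CPM in saline and 823 ± 88.8 CPM in ancrod mice.

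**Figure D2:**
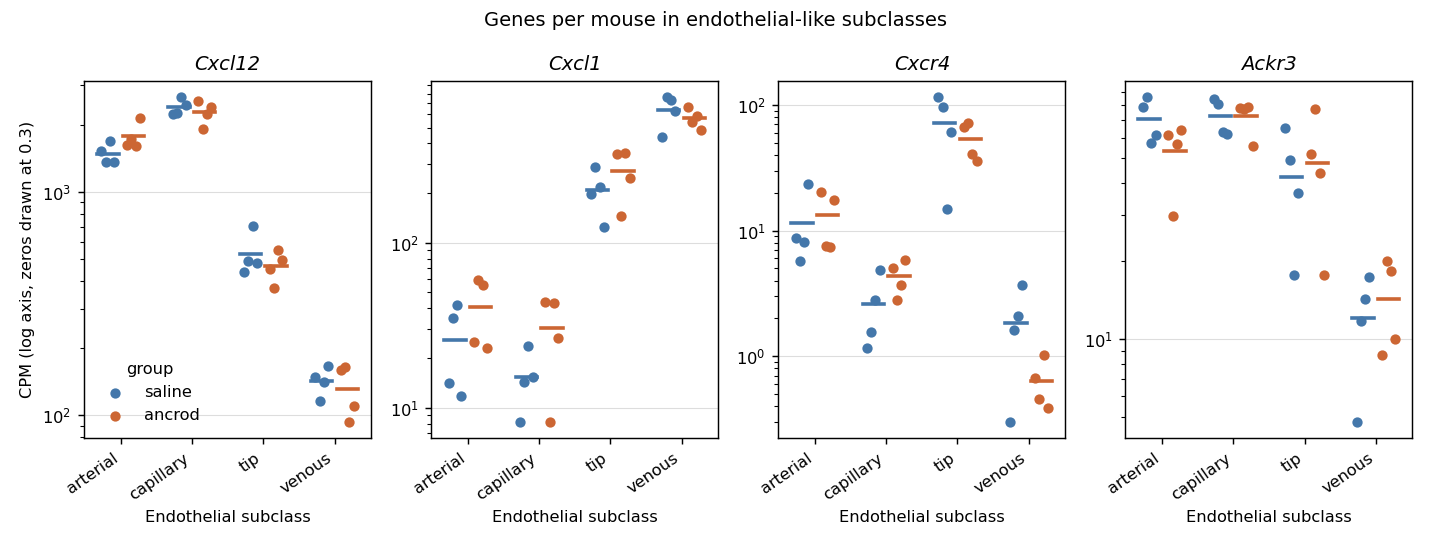
Levels of Cxcl12, Cxcl1, Cxcr4 and Ackr3 (CPM, vertical axes) in arterial-like, capillary-like, tip-like and venous-like endothelial cells, 1 point per mouse with saline in blue and ancrod in orange and lines at group means. Cxcl12 was highest in capillary-like cells (mean 2342), Cxcl1 in venous-like cells (606), Cxcr4 in tip-like cells (62.9) and Ackr3 in capillary-like (72.5) and arterial-like cells (61.9).

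Cxcl2 was highest in neutrophil-like cells, in which it was 1189, 1564, 1589 and 1344 CPM in saline mice and 1655, 4790, 1242 and 1276 CPM in ancrod mice. Only replicate 2 of ancrod lay outside 1189 to 1655 CPM. Border-associated macrophage-like cells followed with 950 ± 372 CPM (SD, n = 8 mice), lower in 7 of 8 mice (log2 ratio 0.89, exact sign-flip permutation test, adjusted p = 0.0469). This order was no longer past the threshold among cells with at least 5000 UMIs (log2 ratio 0.40, exact p = 0.406), a depth that the median neutrophil-like cell, at 4812 UMIs, did not reach. Microglia-like cells had 486 CPM, lower than border-associated macrophage-like cells in 8 of 8 mice (exact p = 0.00781), and inflammatory macrophage-like and monocyte-like cells followed with 343 and 227 CPM. Free RNA held Cxcl2 at a mean of 338 CPM, so the monocyte-like level was under it and the inflammatory macrophage-like level barely above it. By number of molecules the order was another, since microglia-like cells were the largest class and held 60.5% of all Cxcl2 UMIs, and inflammatory macrophage-like cells 15.6%. Neutrophil-like cells held a mean of 1.42% in saline mice and at most 19.9%, in replicate 2 of ancrod.

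Cxcl5 was held almost wholly by astrocyte-like and fibroblast-like cells. In fibroblast-like cells of saline mice its mean of 2.97 CPM was under the 3.35 CPM of free RNA in saline libraries. Astrocyte-like cells had 10.7, 12.8, 50.2 and 17.3 CPM in saline and 18.1, 46.9, 20.5 and 64.0 CPM in ancrod mice, and fibroblast-like cells had 0.876, 6.49, 0 and 4.51 CPM in saline and 72.5, 165, 19.4 and 4.98 CPM in ancrod mice. The mean was higher in fibroblast-like cells (34.2 against 30.1 CPM), but 6 of 8 mice had the higher level in astrocyte-like cells, and the difference did not pass the test (log2 ratio of fibroblast-like to astrocyte-like -1.34, exact sign-flip permutation test, adjusted p = 0.254). No other class had a mean over 0.440 CPM, and astrocyte-like cells exceeded the next class in 8 of 8 mice without overlap (exact p = 0.00781). Among astrocyte-like cells, the cluster led by Aldoc, Mt3 and Gfap had 70.4 ± 44.1 CPM and the cluster led by Fabp7 and Igfbp2 had 3.59 ± 2.90 (SD, n = 8 mice each). Of the 4646 Cxcl5 UMIs, 93.8% were in the 1% of cells with the most.

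Of the classes ranked, Cxcl10 was highest in microglia-like cells, with 264.5, 383, 356 and 360.5 CPM in saline mice and 420, 402, 409 and 438 CPM in ancrod mice. Astrocyte-like cells followed with a mean of 207 CPM, under that of free RNA, and were lower in 7 of 8 mice (log2 ratio 1.16, exact sign-flip permutation test, adjusted p = 0.0391). Among cells with at least 5000 UMIs the log2 ratio was 1.26 and no longer past the threshold (exact permutation test, adjusted p = 0.0521). NK cell-like and T cell-like cells had 151 and 142 CPM and fibroblast-like cells 121, levels under that of free RNA whose order was within the spread. Oligodendrocyte precursor cell-like cells were not ranked because only 5 mice held 10 or more of them. Their mean was 400.4 CPM, with 1867 in replicate 1 of ancrod and 8.84 to 63.0 in the other 4 mice. Microglia-like cells held 72.4% of the Cxcl10 UMIs.

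The Cxcl10 of microglia-like cells was concentrated in an interferon state. The cluster led by Ifit2, Ccl12 and Ifit3, interferon-induced genes, had 2099 ± 193 CPM (SD, n = 8 mice, 1195 cells), between 1790 and 2437 in every mouse, whereas the means of the 11 other microglia-like clusters were 31.2 to 538 CPM. Cxcl2 peaked elsewhere, at 1223 ± 403 CPM in the cluster led by Lpl, Cd14 and Ell2 (1599 cells), against means of 63.7 to 782 in the others. The interferon cluster had 445 ± 181 CPM of Cxcl2, and the cluster led by Lpl, Cd14 and Ell2 had 324 ± 62.2 CPM of Cxcl10. Cxcl16 varied less, with means between 122.6 and 335 CPM. These clusters were formed without the CXC genes, but from other genes of the same cells, and the differences between them are given as a description.

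**Figure D3:**
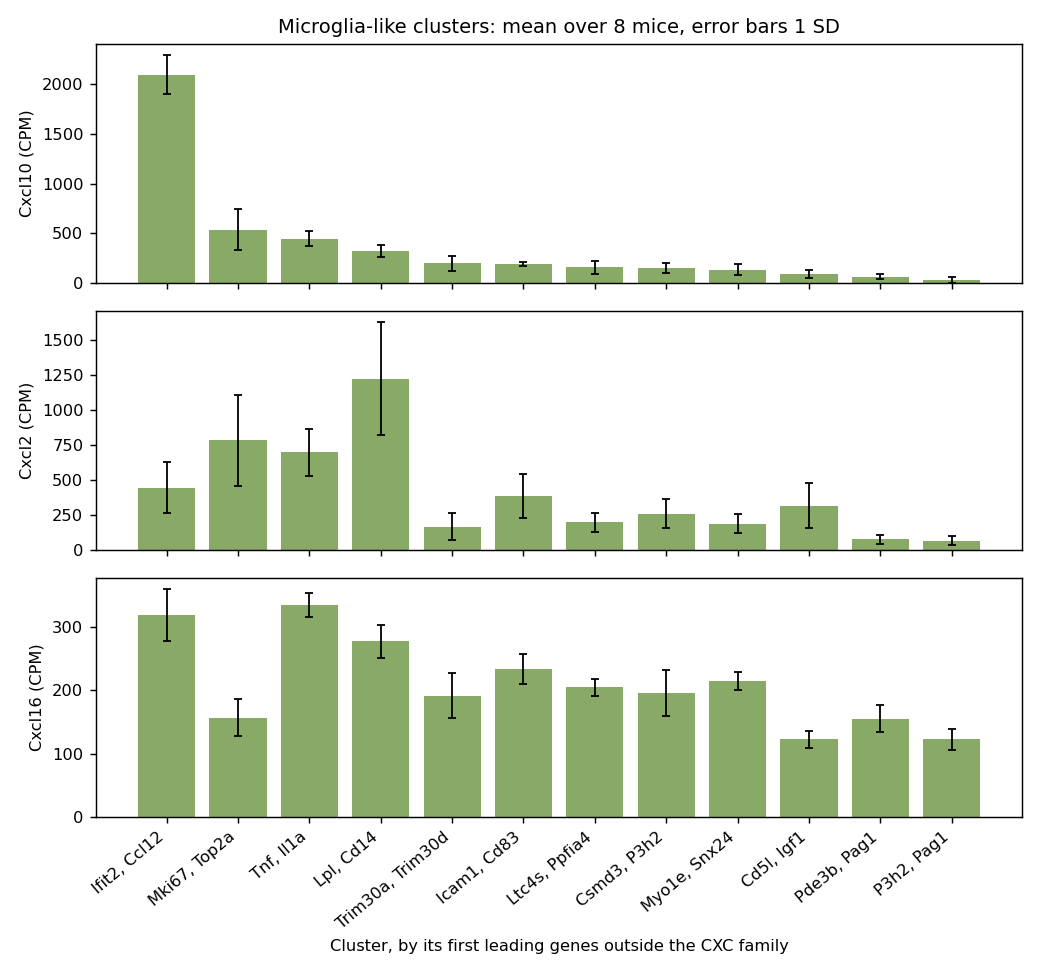
Levels of Cxcl10, Cxcl2 and Cxcl16 (CPM, bars from 0) in 12 microglia-like clusters, labelled by their leading genes outside the CXC family, as means over 8 mice with error bars of 1 SD. Cxcl10 stands at 2099 CPM in the cluster led by Ifit2 and at 538 or less elsewhere, Cxcl2 stands at 1223 CPM in the cluster led by Lpl and Cd14, and Cxcl16 lies between 122.6 and 335 CPM in all 12.

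Cxcl9 was a gene of few cells. A UMI was found in 492 of 44072 cells (1.12%), and the 97 cells with at least 10 UMIs held 4211 of its 5184 UMIs (81.2%). Of these 97 cells, 49 were microglia-like, and 31 of the 49 belonged to the interferon cluster led by Ifit2. Class levels therefore turned on single cells. Border-associated macrophage-like cells had 6.37, 0, 6.39 and 60.7 CPM in saline and 0, 225, 0.893 and 27.6 CPM in ancrod mice, and dendritic cell-like cells had 6.95, 9.92, 0 and 7.39 CPM in saline and 58.5, 28.5, 14.9 and 1.25 CPM in ancrod mice. Neither class led the other (log2 ratio -0.02, 4 of 8 mice higher, exact sign-flip permutation test, adjusted p = 0.961). Astrocyte-like cells had at most 1.19 CPM in 7 mice and 98.8 CPM in replicate 1 of ancrod, in which 563 of its UMIs came from a single cell of 104529 UMIs that also held 2161 Cxcl10 UMIs and 1132 UMIs of astrocyte markers, the class median being 9292 UMIs. The 225 CPM of border-associated macrophage-like cells in replicate 2 of ancrod included a cell with 381 Cxcl9 UMIs that held 7 UMIs of its own class markers and 22 of microglia markers.

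Cxcl12 was a vascular ligand in these data. Endothelial cell-like cells had 1552, 1178, 1569 and 1480 CPM in saline mice and 1085, 1025, 1262 and 1213 CPM in ancrod mice, and fibroblast-like cells had a mean of 576 CPM, lower in 8 of 8 mice without overlap (log2 ratio 1.19, exact sign-flip permutation test, adjusted p = 0.0260). Pericyte-like cells followed with 168 ± 36.8 CPM and smooth muscle cell-like cells with 31.0, each step again without overlap (exact p = 0.00781 for both). Free RNA held Cxcl12 at a mean of 145 CPM, so smooth muscle cell-like cells were under it and pericyte-like cells little above it. The endothelial order ran opposite to that of Cxcl1. Capillary-like cells had 2342 ± 229 CPM, arterial-like cells 1630 (lower in 8 of 8 mice, log2 ratio 0.53, adjusted p = 0.0260 by the exact permutation test), tip-like cells 498 and venous-like cells 137. The venous-like level was also under that of free RNA. A Cxcl12 UMI was found in 90.1% ± 2.19 of thinned capillary-like cells. The fibroblast-like cluster led by Lum, Dcn and Col18a1 had 726 ± 76.8 CPM (n = 7 mice) and the cluster led by Col1a1 and Col3a1 had 502 ± 255 CPM (n = 8 mice).

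Cxcl16 was shared by the antigen-presenting and phagocytic classes. Dendritic cell-like cells had 294, 320.5, 271 and 329 CPM in saline and 318, 362, 312 and 270 CPM in ancrod mice, a mean of 310 ± 30.5. Microglia-like cells had 227 ± 24.0 CPM, lower in 8 of 8 mice without overlap (log2 ratio 0.45, exact p = 0.00781), and inflammatory macrophage-like cells had 179 CPM, lower than microglia-like cells in 8 of 8 mice (exact p = 0.00781). The cluster named B cell-like had a higher mean of 380 CPM over 7 mice, within the spread of dendritic cell-like cells (log2 ratio 0.21, exact permutation test, adjusted p = 0.365), but it was not of a single kind. Of its 112 cells, 73 held a UMI of Cd79a, Cd79b or Ms4a1, defining B cell genes, and had 176 CPM of Cxcl16, with a Cxcl16 UMI in 15.1% of cells. The other 39 had 662 CPM, with a UMI in 79.5% of cells, and 76.9% of them held Fscn1, a gene of mature dendritic cells. Fscn1 was also found in 15.1% of the 73 cells, so 176 CPM is not taken as the level of B cells. At the lower clustering resolution of 1 the B cell-like cluster had less Cxcl16 than dendritic cell-like cells (log2 ratio -8.36). By number of molecules, microglia-like cells held 65.6% of the Cxcl16 UMIs.

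Cxcr2, the receptor of Cxcl1, Cxcl2 and Cxcl5, marked neutrophil-like cells. Its level was 704, 539, 694 and 950 CPM in saline mice and 688, 666, 586 and 857 CPM in ancrod mice, and the next class, T cell-like cells, had a mean of 1.92 CPM (log2 ratio 8.56, 8 of 8 mice without overlap, exact sign-flip permutation test, adjusted p = 0.0260). Neutrophil-like cells were 709 of 44072 cells and held 83.4% of the Cxcr2 UMIs. The free RNA level was 1.79 CPM, and the means of the other classes were close to it or below it. Without thinning, a Cxcr2 UMI was found in 83.1%, a Cxcr4 UMI in 85.9%, both in 72.4% and neither in 3.39% of the 709 cells, whose median depth was 4812 UMIs. After thinning to 2000 UMIs, Cxcr2 was found in 70.8% and Cxcr4 in 68.8% of them, against 0.0351% and 0.924% of astrocyte-like cells (median depth 9292 UMIs before thinning), taken as background. The shares per mouse rest on 12 to 70 saline and 23 to 240 ancrod cells.

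Cxcr4, the receptor of Cxcl12, ran through the classes of infiltrating leukocytes. Neutrophil-like cells had 1057, 1022, 550 and 568 CPM in saline and 646, 1030, 1037 and 903.5 CPM in ancrod mice, and monocyte-like cells had 639 ± 54.1 CPM, lower in 6 of 8 mice without passing the test (log2 ratio 0.37, exact sign-flip permutation test, adjusted p = 0.0651). Among cells with at least 5000 UMIs the order turned (log2 ratio -0.13, exact p = 0.531), so which of the 2 classes was higher is not settled. Inflammatory macrophage-like cells had 422 ± 76.6 CPM, lower than monocyte-like cells in 8 of 8 mice, and dendritic cell-like cells had 282 CPM, lower than inflammatory macrophage-like cells in 8 of 8 mice (exact p = 0.00781 for each). The largest share of Cxcr4 UMIs, 53.7%, was in inflammatory macrophage-like cells. Among endothelial-like cells, whose levels were under that of free RNA, Cxcr4 was higher in tip-like cells (62.9 CPM) than in arterial-like cells (12.4 CPM) in 8 of 8 mice (log2 ratio 2.21, exact permutation test, adjusted p = 0.0260), and capillary-like and venous-like cells had 3.46 and 1.24 CPM.

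Ackr3, which removes Cxcl12, was carried by mural and vascular cells. Pericyte-like cells had 370, 567, 535 and 401 CPM in saline and 274, 293, 292 and 314 CPM in ancrod mice, and smooth muscle cell-like cells had 158 ± 58.4 CPM, lower in 8 of 8 mice without overlap (log2 ratio 1.30, exact sign-flip permutation test, adjusted p = 0.0260). Fibroblast-like (55.8 CPM) and endothelial cell-like cells (51.1 CPM) did not differ beyond their spread (exact p = 0.789), and both stood above microglia-like cells (5.42 CPM), from which endothelial cell-like cells were separate in all mice. In the vessel wall the ligand Cxcl12 was thus highest in endothelial cell-like cells and its scavenger in pericyte-like cells. Among the endothelial subclasses that were named, both genes had their highest mean in capillary-like cells. Pericyte-like cells were 1246 of 44072 cells and held a mean of 20.8% of the Ackr3 UMIs in saline and 12.6% in ancrod mice. Endothelial cell-like cells held 36.6% in saline and 24.6% in ancrod mice, and fibroblast-like cells 11.5% and 31.6%.

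**Figure D4:**
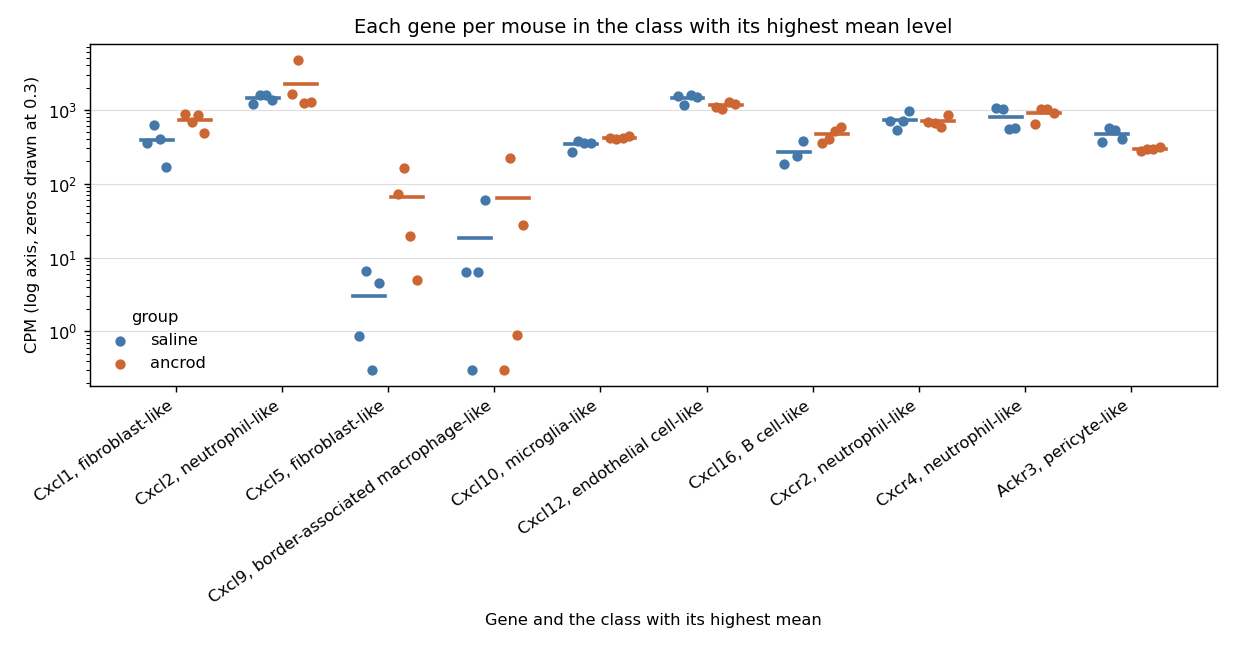
Level of each of the 10 genes in the class with its highest mean, 1 point per mouse on a log axis (CPM, zeros drawn at 0.3), saline in blue and ancrod in orange, lines at group means. Ackr3 in pericyte-like cells (370 to 567 against 274 to 314 CPM) and Cxcl10 in microglia-like cells (264.5 to 383 against 402 to 438 CPM) do not overlap between groups, and the others do. Of all genes tested, 6.60% in pericyte-like and 2.05% in microglia-like cells did not overlap. Neither difference passed the test of ancrod against saline mice given below.

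Over classes and mice, the gene whose level ran most like that of each member was named as a description, over 118 sums of 15 classes that share 8 libraries. The highest correlations were those of Cxcr2 with Mrgpra2b (r = 0.95), Cxcr4 with AB124611 (r = 0.95), Ackr3 with Nr2f2 (r = 0.93), a transcription factor of venous and mural cells, Cxcl12 with Pgm5 (r = 0.88), Cxcl16 with Erp29 (r = 0.88), Cxcl5 with Megf10 (r = 0.85), an engulfment receptor of astrocytes, Cxcl1 with Cp (r = 0.84), ceruloplasmin, and Cxcl2 with Cd14 (r = 0.80), the coreceptor for lipopolysaccharide. Cxcl10 and Cxcl9 had no close match, with Slfn9 (r = 0.63) and Dab2 (r = 0.53) at the top.

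To determine whether fibrinogen depletion changed these genes, UMIs were summed per mouse and compared between ancrod and saline mice with edgeR's quasi-likelihood test and Benjamini-Hochberg adjustment over all genes tested. Taken over all cells of a mouse, none of the 10 members passed (adjusted p under 0.05), and neither did any of 16166 genes (0%), although 2866 genes (17.7%) and 3 members had an unadjusted p under 0.05. DESeq2 called 917 genes (5.67%) and 2 members, Cxcl5 (adjusted p = 1.15e-07) and Cxcl1 (adjusted p = 0.0189). A sum over all cells cannot tell fewer cells of a type from less RNA per cell.

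The members with the lowest unadjusted p in all cells were Cxcl5, Cxcl1 and Cxcl12. Cxcl5 was 1.79, 1.31, 1.40 and 1.47 CPM in saline and 9.90, 18.9, 5.54 and 5.04 CPM in ancrod mice, and the groups did not overlap, as for 1 of 10 members and 8.97% of all genes. Its log2 fold change was 2.69 (SE 0.43, edgeR adjusted p = 0.143). Cxcl1 was 46.7, 94.4, 63.9 and 39.7 CPM in saline and 155, 86.8, 215 and 146 CPM in ancrod mice, which overlapped, with a log2 fold change of 1.25 (SE 0.36, edgeR adjusted p = 0.203). Cxcl12 was 338 ± 49.3 CPM in saline and 264 ± 52.0 in ancrod mice, with a log2 fold change of -0.40 (SE 0.15, edgeR adjusted p = 0.248). The mix of cells moved with these values. The paper reports that reactive fibroblasts and macrophages trended higher among the cells of fibrinogen-depleted mice. It names easier dissociation of the injury site, from reduced fibrosis, as the likely reason, which was not tested here. In tissue sections it found fewer activated perivascular fibroblasts in the lesion core after depletion. Shares of cells and of UMIs therefore describe the cells recovered, not those of the tissue. Fibroblast-like cells, which carried Cxcl1 and Cxcl5, were 2.80% ± 1.63 of cells in saline and 6.18% ± 3.54 in ancrod mice (exact permutation test, adjusted p = 0.324 over 17 classes), and endothelial cell-like cells, which carried Cxcl12, were 21.1% ± 1.52 and 11.4% ± 4.16 without overlap (exact p = 0.0286, the smallest that 4 against 4 mice allow, adjusted p = 0.162). Astrocyte-like cells, which held 78.8% of the Cxcl5 UMIs in saline and 39.3% in ancrod mice, were 7.15% ± 4.05 and 12.2% ± 6.18 of cells, with overlap (exact permutation test, adjusted p = 0.324). The share of Cxcl12 UMIs in endothelial cell-like cells was 79.7% in saline and 52.8% in ancrod mice. The other 7 members had log2 fold changes between -0.22 (Ackr3) and 1.09 (Cxcr2) and adjusted p of 0.347 or more by edgeR.

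Within classes, 79 pairs of a member and a class were tested by edgeR and 1 was called, Cxcl1 in pericyte-like cells, beside 27 of 130105 pairs over all genes (0.0208%). At an unadjusted p under 0.05 there were 17 of 79 member pairs (6.34% over all genes), and the groups did not overlap for 4 of 79 (3.82% over all genes). Besides Cxcl1 in pericyte-like cells these were Ackr3 in pericyte-like, Cxcl10 in microglia-like and Cxcr4 in astrocyte-like cells.

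Cxcl1 rose in pericyte-like cells of fibrinogen-depleted mice. It was 57.1, 102, 125 and 33.5 CPM in saline and 633, 278, 217 and 223 CPM in ancrod mice, so that every ancrod mouse was above every saline mouse. The means were 79.4 ± 41.5 and 337 ± 199 CPM (SD, n = 4 mice each), a log2 fold change of 2.18 (SE 0.37, edgeR adjusted p = 0.0207), where 24 of 9273 genes tested in this class passed (0.259%) and 6.60% did not overlap between groups. A Cxcl1 UMI was found in 2.28%, 6.43%, 5.10% and 1.28% of thinned saline cells and in 17.2%, 8.99%, 9.93% and 7.89% of thinned ancrod cells, from 156 to 219 saline and 99 to 189 ancrod pericyte-like cells per mouse. Within batch 1 alone (n = 3 mice each) the log2 fold change was 2.07 (SE 0.34, edgeR adjusted p = 0.00897), and batch 2, with 1 mouse per group, gives no test. Without replicate 1 of saline the adjusted p was 0.113, and without replicate 2 of saline it was 0.0910, both by edgeR.

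The call also depended on which cells were counted as pericyte-like. A cluster of 514 cells led by Rgs5, Vtn, Higd1b and Abcc9, all pericyte genes, stayed unnamed because its marker score was highest for endothelial cells while its leading genes were those of pericytes. Its median depth was 27534.5 UMIs and 20.1% of its droplets had been marked as doublets. Its Cxcl1 was 61.9, 164, 199 and 35.4 CPM in saline and 123, 136, 156 and 79.6 CPM in ancrod mice, which overlapped. With this cluster added, Cxcl1 was 59.7, 135, 184 and 34.6 CPM in saline and 249, 190, 178 and 105 CPM in ancrod mice, again with overlap, and the log2 fold change was 0.83 (SE 0.44, edgeR adjusted p = 0.784).

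Several other values moved with Cxcl1 in pericyte-like cells. The summed level of the 10 fibroblast markers was 846 to 1159 CPM in saline and 1222 to 1882 CPM in ancrod mice, without overlap, at most 3.64% and 6.04% of the same sum in fibroblast-like cells. The 10 inflammatory macrophage markers summed to 322 to 659 and 713 to 1157 CPM, and overlapped once Fn1 was left out. T cell markers summed to at most 0.938 CPM in saline and to 0.985 to 65.7 CPM in ancrod mice. Free RNA held Cxcl1 at 51.3, 69.9, 69.0 and 33.8 CPM in saline and 128, 63.7, 149 and 126 CPM in ancrod libraries, and in replicate 4 of saline the level in pericyte-like cells did not exceed that of free RNA. Fos, an immediate early gene that also rises on cell dissociation, was 641, 596, 690 and 200 CPM in saline and 1680, 989, 832 and 1423 CPM in ancrod mice, without overlap. The 8 pericyte markers overlapped, at 28626 to 33244 and 27780 to 30195 CPM, and none of them was at 0. The part of RNA from these other cells, of free RNA and of dissociation in the result was not tested.

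The change of Cxcl1 in pericyte-like cells was set against its change in 5 other vascular classes, a comparison chosen after the values were seen. Of these, venous-like and tip-like cells are parts of the endothelial cell-like class. The log2 ratio of pericyte-like to venous-like cells was -3.13 ± 0.72 in saline mice and -0.90 ± 0.58 in ancrod mice, 2.24 apart (exact permutation test, p = 0.0286, adjusted p = 0.0714 over the 5). The differences were 1.73 against tip-like cells, 1.33 against smooth muscle cell-like cells, 1.31 against endothelial cell-like cells and 1.08 against fibroblast-like cells, and none of the 5 passed after adjustment. In the other vascular classes Cxcl1 itself had log2 fold changes of 0.91 in fibroblast-like (edgeR adjusted p = 0.262), 0.62 in endothelial cell-like (0.586), 0.21 in smooth muscle cell-like (0.999) and -0.18 in venous-like cells (1.00). In capillary-like, arterial-like and tip-like cells they were 0.92, 0.59 and 0.39 (edgeR adjusted p = 1.00, 0.999 and 1.00). Outside the vascular classes they were 1.36 in neutrophil-like, 1.09 in inflammatory macrophage-like and 0.74 in border-associated macrophage-like cells. In astrocyte-like cells the value was 0.59 and in microglia-like cells -0.26. The groups overlapped in each of these, none passed by edgeR, and their mean levels were under that of free RNA.

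**Figure D5:**
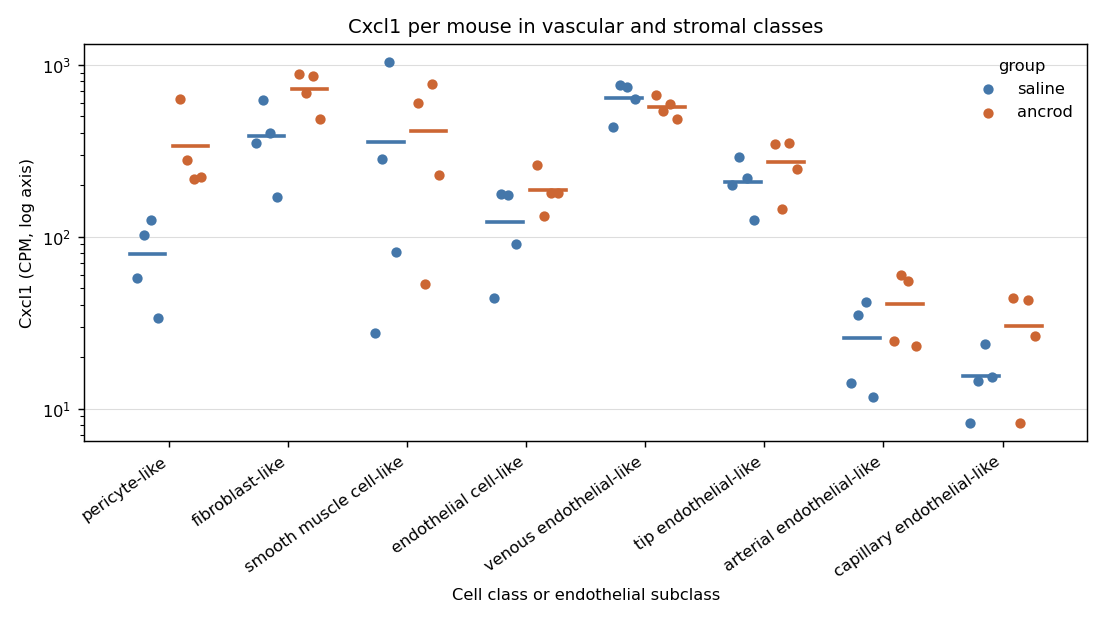
Cxcl1 level (CPM, log axis) per mouse in 8 vascular and perivascular classes and subclasses, saline in blue and ancrod in orange, lines at group means. In pericyte-like cells the saline mice lie at 33.5 to 125 CPM and the ancrod mice at 217 to 633 CPM, whereas in every other class shown the groups overlap.

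Cxcl2 in pericyte-like cells did not pass the test, but did under some other settings. It was 9.02, 22.5, 36.8 and 3.73 CPM in saline and 220, 92.1, 48.2 and 17.1 CPM in ancrod mice, with a log2 fold change of 2.56 (SE 0.61, edgeR adjusted p = 0.0945), and all 8 values were under the level of free RNA. With the unnamed Rgs5 cluster added, Cxcl2 was 4.42 to 90.0 CPM in saline and 17.8 to 111 CPM in ancrod mice, with overlap, a log2 fold change of 0.67 (edgeR adjusted p = 0.839). Ackr3 was 468 ± 97.6 CPM in saline and 293 ± 16.2 CPM in ancrod pericyte-like cells, without overlap, a log2 fold change of -0.62 (SE 0.14, edgeR adjusted p = 0.0747). With that cluster added, Ackr3 was 253, 350, 201 and 231 CPM in saline and 141, 175, 212 and 152 CPM in ancrod mice, a log2 fold change of -0.56 (SE 0.17, edgeR adjusted p = 0.784). DESeq2 called Ackr3 (adjusted p = 0.00594) but not Cxcl2 in these cells. With batch as a term Cxcl2 passed (log2 fold change 2.50, SE 0.46, edgeR adjusted p = 0.0239) and Ackr3 did not (-0.62, SE 0.14, edgeR adjusted p = 0.0572), and within batch 1 alone both did (2.52 and -0.72, edgeR adjusted p = 0.0232 and 0.0352). Cxcl2 also passed without a filter on low counts (2.55, edgeR adjusted p = 0.00190) and without replicate 4 of ancrod (2.86, edgeR adjusted p = 0.0199).

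Of the other genes, those named by rule from the lists on CXC biology came down to Irf1, an interferon-regulated transcription factor. It was the only gene of the 5 lists called in any class, with 35.2 ± 6.92 CPM in saline and 113 ± 37.0 CPM in ancrod pericyte-like cells (log2 fold change 1.72, SE 0.23, edgeR adjusted p = 0.00552). With the Rgs5 cluster added its log2 fold change was 0.64 (edgeR adjusted p = 0.784). Of the 8 tested genes on inducers of CXC ligands, such as NF-kappaB subunits and cytokines, 7 had a log2 fold change above 0 in pericyte-like cells (median 0.71, against -0.01 for all genes tested), and of 11 interferon response genes 10 did (median 0.39). Nfkbiz, an NF-kappaB cofactor named here outside the rule, was 79.5 CPM in saline and 140 CPM in ancrod mice (log2 fold change 0.89, edgeR adjusted p = 0.205). Among the 24 genes called in pericyte-like cells were also the immediate early genes Egr1 (326 and 767 CPM), Junb (473 and 1089 CPM) and Ier2 (153 and 303 CPM) and the stress gene Gadd45b (133 and 354 CPM), named here after their values were seen.

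Cxcl5 in fibroblast-like cells had a larger fitted fold change than Cxcl1 in pericyte-like cells, with a larger standard error. It was 2.97 ± 3.05 CPM in saline and 65.4 ± 72.3 CPM in ancrod mice, with a log2 fold change of 4.09 (SE 1.08), and passed by DESeq2 (adjusted p = 0.0402) but not by edgeR (adjusted p = 0.220), where 2 of 12515 genes passed (0.0160%). Leaving out single mice moved the log2 fold change to between 3.11, without replicate 2 of ancrod, and 4.63, without replicate 2 of saline. The saline mouse with the highest value (6.49 CPM) was above the ancrod mouse with the lowest (4.98 CPM), and Cxcl5 in free RNA averaged 3.35 CPM in saline and 8.18 CPM in ancrod libraries. In astrocyte-like cells its log2 fold change was 0.88 (SE 0.54, edgeR adjusted p = 1.00). Cxcl9 in fibroblast-like cells went the other way, at 9.83 ± 9.76 CPM in saline and 1.42 ± 1.06 CPM in ancrod mice (log2 fold change -2.37, edgeR adjusted p = 0.259).

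Cxcl10 in microglia-like cells was 341 ± 52.5 CPM in saline and 417 ± 15.8 CPM in ancrod mice. The groups did not overlap, as for 1 of 9 members and 2.05% of 13053 genes in this class, and the log2 fold change was 0.33 (SE 0.13, edgeR adjusted p = 0.963). Of the 15 interferon response genes, which share the inducers of Cxcl10, none passed in any class. Their log2 fold changes went both ways. In microglia-like cells 12 of 15 were above 0 (median 0.18) and in astrocyte-like cells all 15 (median 0.43), whereas none of 15 was in all cells (median -0.24), 3 of 14 in fibroblast-like (median -0.52), 1 of 13 in monocyte-like (median -1.09), 1 of 15 in border-associated macrophage-like (median -0.38) and 1 of 7 in neutrophil-like cells (median -1.06). The medians over all genes tested were close to 0 in each. Cxcl10 in astrocyte-like cells was 124.5, 186, 55.8 and 145 CPM in saline and 603, 189, 226 and 124 CPM in ancrod mice, with replicate 1 of ancrod apart from the rest (log2 fold change 1.14, edgeR adjusted p = 1.00). In dendritic cell-like cells, Cxcl10 and Cxcl9 had log2 fold changes of 2.83 and 2.39 (edgeR adjusted p = 0.753 for both), and their levels, at most 147 and 58.5 CPM, overlapped between groups.

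Cxcl12 in endothelial cell-like cells was 1445 ± 182 CPM in saline and 1146 ± 110 CPM in ancrod mice, a log2 fold change of -0.33 (SE 0.11, edgeR adjusted p = 0.528). The makeup of this class moved with it, by shares that rest on the limits used to name subclasses. Cells in no subclass were 25.5% ± 1.29 of endothelial-like cells in saline and 27.6% ± 3.83 in ancrod mice. Capillary-like cells, which had the highest Cxcl12, were 56.9% ± 3.43 of endothelial-like cells in saline and 47.3% ± 3.30 in ancrod mice without overlap, venous-like cells, with the lowest Cxcl12 of the 4 subclasses, were 3.57% ± 1.87 and 6.61% ± 0.967, also without overlap, and tip-like cells were 3.88% ± 1.65 and 8.75% ± 4.58 with overlap. Within capillary-like cells Cxcl12 was 2407 ± 194 CPM and 2278 ± 272 CPM (log2 fold change -0.07, SE 0.11, edgeR adjusted p = 1.00), and within arterial-like cells it was 1486 ± 161 and 1774 ± 249 CPM (log2 fold change 0.27, edgeR adjusted p = 1.00). Of 25 pairs of a member and an endothelial subclass none passed by edgeR, as none of 39506 pairs over all genes (0%) did, with 2 member pairs (3.77% over all genes) at an unadjusted p under 0.05, Cxcl12 in arterial-like and Cxcl10 in venous-like cells. The groups overlapped in all 25, beside 2.56% without overlap over all genes.

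Neither Cxcr2 nor Cxcr4 passed the edgeR test in any class of leukocytes. Cxcr2 in neutrophil-like cells was 722 ± 170 CPM in saline and 699 ± 114 CPM in ancrod mice (log2 fold change -0.11, SE 0.26, edgeR adjusted p = 1.00), and Cxcr4 was 799 ± 278 and 904 ± 183 CPM (log2 fold change 0.20, SE 0.24, edgeR adjusted p = 1.00). In inflammatory macrophage-like cells Cxcr4 was 395 ± 64.4 and 449 ± 87.2 CPM (log2 fold change 0.15, SE 0.14, edgeR adjusted p = 1.00). Cxcr4 in border-associated macrophage-like cells was 209 ± 27.1 and 272 ± 58.6 CPM, with overlap. Its log2 fold change was 0.36 (SE 0.16, edgeR unadjusted p = 0.0388, adjusted p = 0.735). A p above the threshold does not show that the groups are alike. Neutrophil-like cells themselves were 0.781% ± 0.416 of cells in saline and 2.38% ± 1.79 in ancrod mice, with overlap (exact permutation test, p = 0.171), and Cxcr2 over all cells was 0.808, 1.97, 3.25 and 2.92 CPM in saline and 8.02, 8.33, 2.39 and 1.08 CPM in ancrod mice. Cxcr4 in astrocyte-like cells was 4.09 ± 0.306 and 6.83 ± 1.52 CPM without overlap, as 2.37% of genes in this class were (log2 fold change 0.74, edgeR adjusted p = 1.00), levels far under that of free RNA.

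The receptors of the remaining ligands were measured among the other CXC genes. Cxcr3, which binds Cxcl9 and Cxcl10, was 95.2 and 105 CPM in saline and ancrod T cell-like cells and 37.1 CPM in saline NK cell-like cells, where its log2 fold change in ancrod mice was -0.57 (edgeR adjusted p = 0.869). Cxcr6, which binds Cxcl16, was 228 and 260 CPM in T cell-like cells and 87.2 and 95.3 CPM in NK cell-like cells. None of 39 pairs of these other CXC genes and a class passed by edgeR, none of 192 pairs of signaling partners such as Arrb2, Gnai2 and Cd74 did, and none of 44 pairs of dividing-cell genes such as Mki67 did.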

How the data were processed

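The authors sequenced 1 library per mouse of 10x Genomics 3′ chemistry and deposited unnormalized UMI counts of every gene in every droplet, produced by Cell Ranger 7.1.0 and STAR on GRCm39 (mm39) per the submitters' processing notes, counting exonic and intronic reads and with no droplets removed. The members, gene lists and markers were chosen with earlier results of these data known.

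Droplets with at least 2000 UMIs and under 20% mitochondrial UMIs were kept, 5080 to 6277 per mouse with a median of 10653 to 17575 UMIs. In each library the highest doublet scores were removed at 0.8% per 1000 droplets. Cells were clustered on 3000 variable genes without the CXC family (30 principal components, 20 neighbours, leidenalg 0.10.2, resolution 2, seed 1), with numpy 2.4.6 and scipy 1.17.1 in python 3.11.15. A cluster was named by its highest marker score. It was left unnamed if its depth was low and none of its markers was among its leading genes. Low-depth clusters with such a marker were named, such as the astrocyte-like cluster led by Aldoc, Mt3 and Gfap (0.263 of its libraries' median depth) and a border-associated macrophage-like cluster (0.209). A cluster was also left unnamed if another class had more markers among its leading genes or if under 3 markers were detected. The same held if no score reached 0.3 or if another niche scored at 0.4 of the best. These limits, and those for endothelial subclasses, were chosen once the clusters were known.

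UMIs were summed per mouse and class (mice with under 10 cells of a class left out, at least 3 mice per group) and tested with edgeR 4.0.16 (TMM, filterByExpr, glmQLFit, threshold 0.05) in R 4.3.3, checked on simulated counts. DESeq2 1.42.0 was an alternative. Levels are CPM, and ratios between classes used log2(CPM + 1) differences per mouse with exact sign-flip permutation tests over 256 sign patterns, which allow no p under 0.0078125, while 70 arrangements of 4 against 4 mice allow no p under 0.0286. The pairs of classes were read from the same values that were tested. Adjustment covered the first pair of each of the 10 members, not the choice among classes. Every exact p not called adjusted is unadjusted. Shares of cells with a UMI were taken after thinning each cell to 2000 UMIs. Nothing in the labels says that mice were processed apart within a batch. Each mouse was its own library, so p-values measure the spread between these 8 libraries. Differences between mice and differences in their handling cannot be told apart in it. All members were named, as were genes of the lists that passed without overlap of the groups and the genes most correlated with each member. Other settings tried were size factors, filters, single mice left out, a replicate block, batch, doublets, depth, mitochondrial share, clustering resolution and, chosen after seeing the data, a later edgeR method and a wider pericyte-like class.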

Additional observations from a re-analysis of the deposited data

Results flagged for a closer look

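Of 39 groups of 4 mice examined for a mouse far from the other 3, 3 were set apart, and chance alone sets apart about 1 in 20. Cxcl2 in neutrophil-like cells was 4790 CPM in replicate 2 of ancrod, where the other ancrod mice had 1242 to 1655 CPM. With this mouse the log2 fold change of Cxcl2 in neutrophil-like cells was 0.63, and without it -0.06, neither past the threshold by edgeR. Cxcl9 in border-associated macrophage-like cells was 60.7 CPM in replicate 4 of saline, where the other saline mice had 0 to 6.39 CPM. Cxcl9 in the same class was 225 CPM in replicate 2 of ancrod, where the other ancrod mice had 0 to 27.6 CPM.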

How the results depend on the processing

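The count of members called within classes, 1 by edgeR, was 3 with DESeq2, 4 without a filter on low counts, 3 with batch 1 alone, 2 with batch as a term and 0 to 2 when single mice were left out, with 0 without replicate 1 or replicate 2 of saline. Over all genes the 27 pairs called became 370 with DESeq2, 442 without the filter, 123 with the replicate block, 63 with batch as a term, 85 with batch 1 alone, and 9 to 63 when single mice were left out. In all cells, DESeq2 called 2 members and 917 genes in place of 0 and 0. In endothelial subclasses no member was called under any of the 19 alternatives. Cxcl1 in pericyte-like cells kept a log2 fold change of 1.66 to 2.45 when single mice were left out and was called under 17 of 19 alternatives, and in a further one not with the cluster led by Rgs5 and Vtn added (0.83), an alternative chosen after seeing the data. Ackr3 and Cxcl2 in pericyte-like cells were each called under 5.

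The replicate block called 3 members within classes, Cxcl1, Cxcl2 and Ackr3, all in pericyte-like cells. Same-numbered mice correlated at r = -0.50, -0.26, -0.06 and 0.21 over 16166 genes. These values come from sums over all cells, which also differ by the mix of cells. They therefore cannot decide whether same-numbered mice were handled together.

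For the leading class against the next, leaving out single mice gave log2 ratios of 1.19 to 1.46 for Ackr3, 0.89 to 1.61 for Cxcl1, 0.95 to 1.40 for Cxcl10, 1.10 to 1.30 for Cxcl12, 0.69 to 1.05 for Cxcl2, 8.39 to 8.90 for Cxcr2, 0.33 to 0.46 for Cxcr4 and -0.55 to 0.82 for Cxcl9. Most of those that lost the threshold there were at the smallest p that 7 mice can give, which the adjustment over 10 members then moved past it. Thinning to 2000 UMIs gave 2.06 for Cxcl1 and 0.48 for Cxcr4, now past the threshold, and 1.04 for Cxcl9, reversed, as did keeping doublets (0.61). At least 5000 UMIs gave 1.26 for Cxcl10, 0.40 for Cxcl2 and 8.32 for Cxcr2, no longer past it, and -0.13 for Cxcr4, reversed. Leiden resolution 1 gave 0.70 for Cxcl2, no longer past it, and -8.36 for Cxcl16 in B cell-like over dendritic cell-like cells, reversed. The difference in the share of B cell-like cells turned from 0.0891 to -0.000586 percentage points there. Resolution 1 gives no value for all cells.

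No log2 fold change that reversed had passed the threshold. Leaving out single mice gave -0.31 to 1.54 for Cxcl1 in smooth muscle cell-like cells, -0.0427 to 0.19 for Cxcl10 in all cells, -0.15 to 0.0046 for Cxcl12 in capillary endothelial-like cells, -0.25 to 0.0128 for Cxcl16 in all cells, -0.22 to 0.53 for Cxcl2 in all cells, -0.15 to 0.54 for Cxcl2 in microglia-like cells, -0.0577 to 0.83 for Cxcl2 in neutrophil-like cells, -0.0184 to 0.84 for Cxcl9 in all cells, -1.23 to 3.73 for Cxcl9 in border-associated macrophage-like cells and -0.26 to 0.16 for Cxcr2 in neutrophil-like cells. Batch 1 alone gave -0.10 for Cxcl2 in all cells, -0.23 for Cxcl2 in microglia-like cells and 0.0353 for Cxcr2 in neutrophil-like cells. At least 5000 UMIs gave -0.0176 for Cxcl2 in all cells. Resolution 1 gave 0.31 for Cxcl1 in venous endothelial-like cells and -1.61 for Cxcl9 in border-associated macrophage-like cells. The causes were not tested.

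Depth limited the small classes, with 12 neutrophil-like cells in 1 saline mouse and 23 in 1 ancrod mouse, and Cxcl5, Cxcl9 and Cxcr2, which held 4646, 5184 and 2972 UMIs in all. Cell classes were rebuilt here.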
